A study of Mus musculus with 12 samples.

Results

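The comparison set 6 liver libraries from mice that had received an agonistic antibody to CD40 against 6 from mice that had not, across both states of IL-1R1 blockade. All 12 libraries of the series entered it, each placed in its arm by its sample title. The arm with agonist held 3 agoCD40 libraries (the agonist alone) and 3 Combo libraries (the agonist together with an antibody that blocks IL-1R1). The arm without agonist held 3 isotype libraries and 3 antiIL1R1 libraries (the blockade alone). The labels describe the isotype group both as isotype control and as no treatment. All mice bore pancreatic ductal adenocarcinoma and were 12 weeks old. Strain, tumour model, dose and the interval from antibody to liver collection are not given in the sources used here. The libraries carry no animal identifiers, and the tests below rest on the spread among libraries, which may in part be technical.

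CD40 is a receptor of the TNF receptor family on B cells, dendritic cells and macrophages. Its natural ligand is carried by activated T cells, and an agonist antibody stands in for that ligand, which drives B cell activation and class switching and licenses antigen-presenting cells. IL-1R1 is the receptor for IL-1α and IL-1β, and in the liver its signalling supports the acute phase response of hepatocytes. Kupffer cells, the macrophages that reside in liver sinusoids, clear particles and haemoglobin from the blood.

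Total estimated counts ranged from 18681390 to 27118712 per library. The hepatocyte gene Alb lay between 23875 and 36836 TPM, and Ttr, Apoa1 and Serpinc1 exceeded 1939.6 TPM or equalled it in every library. A pair of libraries without agonist had the highest mitochondrial share of counts (14.1% for isotype 2, 14.8% for antiIL1R1 2), and the remaining ones lay between 6.23% and 12.2%. The mean share was 9.81% ± 1.81 (SD, n = 6) with agonist and 10.3% ± 3.61 (SD, n = 6) without (two-sided exact permutation test, p = 0.799). Counts of calls are therefore also given without these 2 libraries.

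The livers with agonist carried more immunoglobulin, B cell and collagen transcripts and several neutrophil granule transcripts, and fewer transcripts of several Kupffer cell, immediate early and acute phase genes. In a model with agonist and blockade as separate factors, 303 of 15465 genes tested passed an adjusted p of 0.05 for the agonist (1.96%; edgeR quasi-likelihood test). Of these, 194 were higher with agonist (1.25% of all tested) and 109 were lower (0.705%). The median log2 fold change was 1.63 among the higher genes and -0.85 among the lower ones, and 192 of the 303 changed at least 2-fold. Over all genes tested the median was -0.00082, as the scaling sets it. For 356 genes (2.3%) the 6 libraries of one arm did not overlap with the 6 of the other, and 210 of the 303 called genes were among them.

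The number of calls moved in both directions with the libraries and the model, and the share of higher calls moved with scaling. It rose to 1012 with the mitochondrial percent as a covariate, 815 with DESeq2 and 631 with no filter on low counts. Without the 2 libraries of high mitochondrial share 152 genes were called, 93 higher and 59 lower. Leaving out agoCD40 3 gave 134 calls, and the count was also lower by more than 1.5 times without antiIL1R1 3 (171), Combo 2 (177), Combo 1 (190), isotype 1 (192) or isotype 2 (197). Total-count scaling moved the median of all genes to 0.12 (log2) and called 305 higher and 61 lower, so that 83.3% of calls were higher there against 64% here.

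The agonist effect was then read in each blockade state by itself. In the fit of all 12 libraries, agoCD40 differed from isotype at 111 genes (0.718%; 42 higher, 69 lower), and Combo differed from antiIL1R1 at 27 genes (0.175%; 20 higher, 7 lower). All 303 genes of the main effect had the same sign in both states, and 287 had an unadjusted p under 0.05 in both. That count is in part fixed by the choice of genes, since the main effect averages the states. The median log2 fold change of the 194 higher genes was 1.62 without blockade and 1.68 with it, and that of the 109 lower genes was -0.88 and -0.81. The same choice favours similar medians, so these do not show that the states agree. The difference between the states passed the threshold at 1 gene (0.00647% of those tested), Ddit4, and 1161 genes had an unadjusted p under 0.05 for it. Among the 303 called genes 30 did (9.9%), against 7.51% of all genes tested, and their choice by an averaged effect works against genes that differ. In simulated counts the test of the difference recovered 9 of 100 genes altered 2-fold and 53 of 100 altered 4-fold, so a low count of calls does not show that the states are alike.

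**Figure D1:**
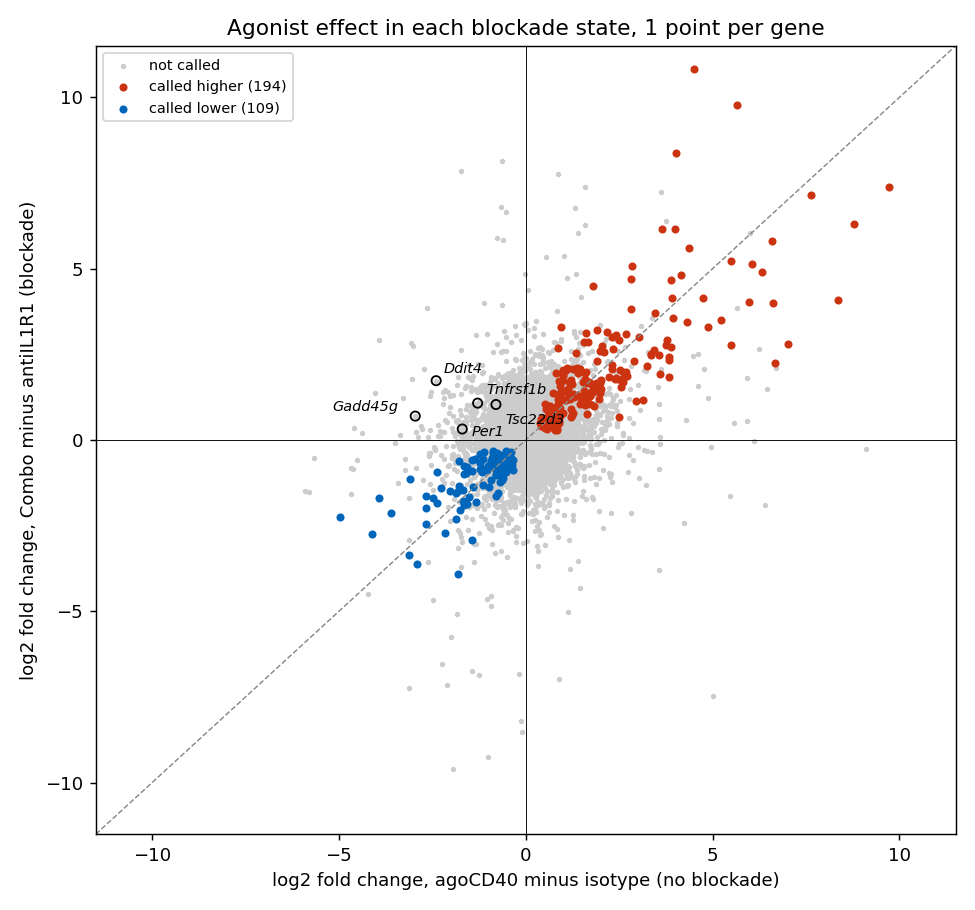
Each point is a gene, with the log2 fold change of agoCD40 over isotype on the x axis and of Combo over antiIL1R1 on the y axis. The 194 genes called higher (red) and 109 called lower (blue) lie on the same side of 0 on both axes, which their choice by the averaged effect favours, while Ddit4, Gadd45g, Per1, Tnfrsf1b and Tsc22d3 (circled) lie below 0 on the x axis and above 0 on the y axis.

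A reading in which the states share no library used a separate fit of the 6 libraries of each state. Without blockade 28 genes were called (0.181%). In the Combo and antiIL1R1 libraries 21 of these 28 had the same sign (75%, exact binomial 95% interval over genes 55.1 to 89.3), against 56.8% of all genes. Of the 28, 12 reached an unadjusted p under 0.05 there with that sign (42.9%, against 12% of all genes). With blockade 65 genes were called (0.42%), and 57 of these had the same sign in agoCD40 against isotype (87.7%, 77.2 to 94.5). Of the 65, 44 reached an unadjusted p under 0.05 with that sign (67.7%, against 6.15% of all genes). Genes are not independent of each other, so these intervals are too narrow. The number called in both separate fits was 5.

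The agreement was also counted by direction. Of the 8 genes called higher without blockade, 7 were also higher with it, with a median log2 fold change of 3.85 in the first state and 2.63 in the other. Of the 20 called lower without blockade, 14 were lower with it, and their median went from -2.42 to -0.30. For genes called with blockade, 41 of 45 higher and 16 of 20 lower ones had the same sign without it. Their medians went from 2.56 to 2.08 and from -1.79 to -0.82. In each case the first median comes from the values that chose the genes, which favours a smaller one in the other state. These changes therefore do not show a weaker agonist effect there. Across all 15465 genes Pearson's r between the effects in the separate states was 0.334 and Spearman's rho was 0.204, given as a description since genes are not replicates. The separate fit without blockade called 1 gene once agoCD40 3 was left out, 3 without agoCD40 2 and 0 without agoCD40 1. The fit with blockade called 1066 genes without antiIL1R1 1, of which 68.4% kept their sign in the other state, 117 without Combo 3 (75.2%) and 16 without Combo 1 (100%).

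B cell and plasma cell genes were higher with agonist as a group. Of 29 tested genes 21 rose (against 1.25% of all genes) and 0 fell. All 29 had a positive log2 fold change, with a median of 2.18 (2.46 without blockade, 1.92 with it) against -0.00082 over all genes. Several members, such as Ighg2c, Ighg3, Mzb1, Blk, Cxcr5 and Iglc1, passed the count filter mainly through the libraries with agonist. For these the sign is a description, and the counts and median of the list rest on them in part. Ighm, the heavy chain of IgM, lay at 5.63, 9.30 and 10.8 CPM (lowest, median and highest of 6) without agonist and at 44.5, 60.6 and 104 CPM with it. The arms did not overlap, and the log2 fold change was 2.93 ± 0.23 (SE; edgeR adjusted p = 4.81e-05). In the separate states the Ighm log2 fold change was 3.35 ± 0.29 without blockade and 2.51 ± 0.28 with it. Jchain, the joining chain of polymeric antibody, rose from a median of 1.11 CPM (0.214 to 2.28) to 14.7 CPM (11.2 to 20.4), a log2 fold change of 3.98 ± 0.36. Igkc, the κ constant region, rose from 6.96 CPM (2.41 to 10.5) to 62.5 CPM (32.7 to 84.9), a log2 fold change of 3.35 ± 0.33. Both rose without overlap of the arms.

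Switched isotypes rose as well. Ighg2b had 0.322, 0.352 and 0.63 CPM in the isotype libraries and 1.14, 0.327 and 0.476 CPM under blockade alone. It had 4.92, 4.68 and 10.6 CPM in agoCD40 and 11.5, 13.1 and 9.27 CPM in Combo. Every library with agonist exceeded every library without it, with a log2 fold change of 4.02 ± 0.33 (edgeR adjusted p = 4.81e-05). Ighg2c lay at 0, 0.0185 and 0.402 CPM without agonist and at 3.58, 11.8 and 20.6 CPM with it, and its log2 fold change was 7.16 ± 0.72. The antiIL1R1 libraries held 1 Ighg2c count against 1226 in Combo, a ratio of 1210 (95% counting interval 217 to 47900). Genes of the B cell surface and lineage rose too, by log2 fold changes of 2.61 for Cd79a, 2.69 for Ms4a1 (CD20) and 2.49 for Pax5. Xbp1, which hepatocytes also express, made up 62.2% of the list's summed CPM and showed 0.07 (adjusted p = 0.825), so the list is not read by its sum.

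Variable segments of the antibody genes were higher along with the constant regions. Of 346 segments listed, 22 had enough counts to be tested, and these passed the filter mainly through the libraries with agonist, so that their signs are a description. In sum they took 0.10 to 1.71 CPM without agonist and 9.81 to 20.3 CPM with it, without overlap. Of the 22, 10 rose (against 1.25% of all genes) and 0 fell. With segments of few counts set at their bound the median log2 fold change was 3.36 without blockade and 2.93 with it. Iglv1 rose from a median of 0.109 CPM to 2.41 CPM, with a log2 fold change of 4.39 ± 0.51. Iglv2 had 3 counts in all 6 libraries without agonist and 163 with it, a ratio of 49.6 (95% counting interval 16.7 to 243). Of the 10 calls 7 stayed without the 2 libraries of high mitochondrial share, and 6 without Combo 2. Near-identical segments can share reads, so single segments are uncertain.

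These are bulk samples, in which more cells of a type and more RNA per cell cannot be told apart. Of the 21 B and plasma cell calls, 16 stayed without the 2 libraries of high mitochondrial share, and 13 to 20 when single libraries were left out (13 without agoCD40 3). The erythrocyte list, a sign of blood in the tissue, had a median log2 fold change of 0.996 over 9 genes. Of these 0 rose and 1 fell (against 0.705% of all genes). Its call, Tfrc, was lost without the 2 libraries of high mitochondrial share. The summed level ran from 461 to 1816 CPM without agonist and from 728 to 2964 CPM with it. The part of blood in these results was not tested.

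**Figure D2:**
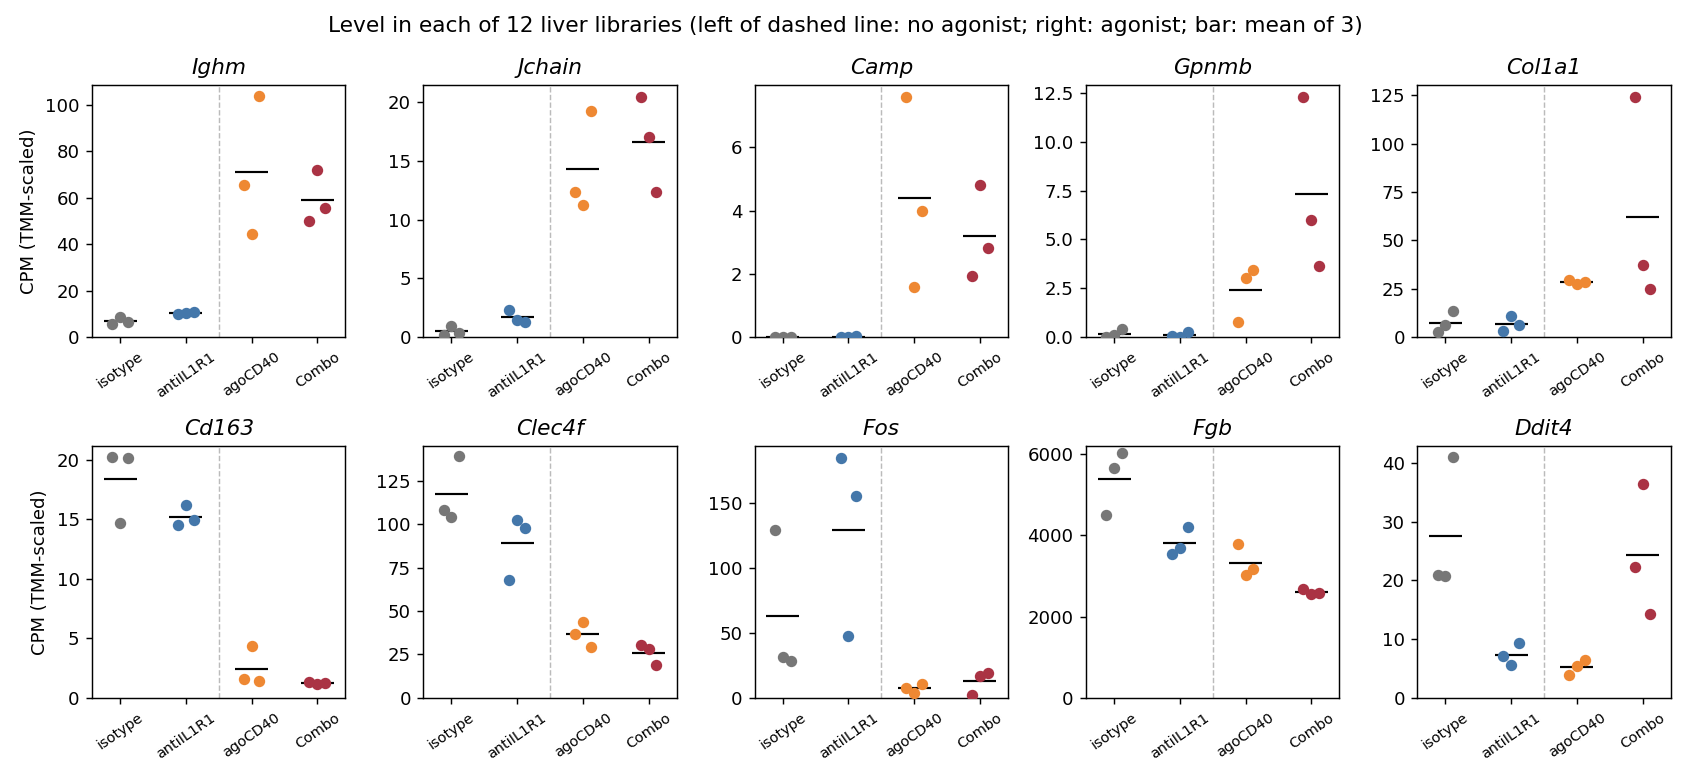
Each panel shows TMM-scaled CPM of 1 gene in the 12 libraries, 3 per group, with the mean as a bar. In the panels of Ighm, Jchain, Camp, Gpnmb and Col1a1 every library with agonist lies above every library without it, in those of Cd163, Clec4f and Fos every library with agonist lies below, for Fgb the arms overlap, and for Ddit4 the order of the arms turns with blockade.

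Several granule genes of neutrophils rose, while the summed level of the neutrophil list overlapped between the arms. Of 14 neutrophil genes tested, 7 rose (against 1.25% of all genes) and 0 fell, with a median log2 fold change of 1.39 (0.75 without blockade, 2.52 with it). The risen genes were Camp, Ngp, Ltf, Mpo, Elane, S100a8 and S100a9. Camp, Ngp, Ltf, Mpo and Elane passed the count filter mainly through the libraries with agonist. Their signs, and with them the count and the median, are therefore a description. The sum ran from 10.5 to 127 CPM without agonist and from 51.3 to 107 CPM with it, with isotype 2 and isotype 3 at 107 and 127 CPM, and Lcn2, which hepatocytes also make, took 32.9% of it. Camp, the cathelicidin of secondary granules, had 0 CPM in 5 of 6 libraries without agonist and 0.0397 CPM in antiIL1R1 3. It had 7.60, 1.58 and 3.98 CPM in agoCD40 and 1.94, 4.80 and 2.82 CPM in Combo. The 6 libraries with agonist held 563 counts and the 6 without held 1, a ratio of 514 (95% counting interval 91.9 to 20300) with an edgeR adjusted p of 4.81e-05.

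Ngp, another secondary granule protein, lay at 0 CPM in 5 libraries without agonist and at 1.00 CPM in isotype 3. With agonist it ran from 5.64 to 14.6 CPM, a log2 fold change of 5.73 ± 0.82. Mpo, the myeloperoxidase of primary granules, had the same pattern, with 0 in 5 libraries and 0.26 CPM in isotype 3 against 0.885 to 3.23 CPM with agonist. Ltf, lactoferrin, rose from a median of 0.139 CPM to 3.47 CPM, and its arms did not overlap. Other granule genes were not called, with log2 fold changes of -2.02 for Prtn3 (adjusted p = 0.0768), -0.62 for Lcn2 (adjusted p = 0.585), 0.93 for Mmp8 (adjusted p = 0.373) and 1.06 for Mmp9 (adjusted p = 0.402). Nor were Retnlg (0.82) and the receptors Csf3r (-0.37) and Cxcr2 (-0.56), which completes the list.

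S100a8, a calcium-binding alarmin, overlapped between the arms, with 0.735 to 12.0 CPM without agonist and 7.58 to 21.4 CPM with it. Its log2 fold change was 0.95 ± 0.43 without blockade and 3.29 ± 0.49 with it, and the difference of 2.34 ± 0.64 did not pass the test over all genes (edgeR adjusted p = 0.467). The S100a8 call was kept in 3 of 12 fits that left out a library. Of the 7 calls, 5 stayed without the 2 libraries of high mitochondrial share, and 4 stayed without agoCD40 1, Combo 2, Combo 3 or isotype 1.

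MHC class II genes, which present antigen to helper T cells, rose in part. Of 12 tested, 5 rose (against 1.25% of all genes) and 0 fell, with a median log2 fold change of 1.24 (0.95 without blockade, 1.55 with it). Of the risen genes, H2-Eb2 and H2-Oa passed the count filter mainly through the libraries with agonist. Their signs are a description, and the count and median rest on them in part. H2-Eb2, a class II β chain, had a median of 0.0268 CPM (0 to 0.159) without agonist and 1.76 CPM (0.995 to 3.17) with it, a log2 fold change of 4.90 ± 0.67. Ciita, the master regulator of class II transcription, went from 2.29 CPM (1.05 to 4.67) to 8.47 CPM (4.57 to 11.3), with a log2 fold change of 1.72 ± 0.31 and an overlap of the arms. H2-Ob, H2-DMb2 and H2-Oa, which act in peptide loading, rose by 1.77 ± 0.34, 1.68 ± 0.34 and 2.74 ± 0.59 (log2). For the classical chains and their chaperone the values missed the threshold, such as 1.19 for Cd74 (adjusted p = 0.0714) and 1.15 for H2-Ab1 (adjusted p = 0.0768).

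Of the 5 class II calls 2 stayed without the 2 libraries of high mitochondrial share, and 3 stayed without agoCD40 3, Combo 2 or isotype 2. B cells express class II genes too, and the share of B cells in this list's change was not tested. In MHC class I presentation, a function of all nucleated cells, 1 gene of 18 rose (against 1.25% of all genes) and the median was 0.22. The gene was H2-Q6 (0.73 ± 0.15, kept in 7 of 12 fits that left out a library).

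T cell and cytotoxic genes had mostly positive values and few calls. Of 22 T cell genes 21 had a positive log2 fold change, against 7711 of all 15465 genes, and the median was 0.92. Of the 22, 1 was called, Cd3d of the T cell receptor complex, while 1.25% of all genes were called higher. Cd3d lay at 0.0408 to 0.437 CPM without agonist and at 0.467 to 1.92 CPM with it, a log2 fold change of 2.39 ± 0.52 (edgeR adjusted p = 0.0327). The arms did not overlap, and the call was kept in 4 of 12 fits that left out a library. Of 10 NK and cytotoxic genes 2 rose and 0 fell. Eomes, a transcription factor of NK and CD8 T cells, had 2 counts without agonist and 65 with it, a ratio of 29.7 (95% counting interval 7.89 to 250). Ccl5, a chemokine of T and NK cells, went from a median of 1.36 CPM to 4.34 CPM with overlapping arms, and its call was kept in 4 of 12 fits. Cd3d and Eomes passed the count filter mainly through the libraries with agonist. Their signs are a description, and the counts of calls rest on them in part. Without the 2 libraries of high mitochondrial share 0 of 1 T cell and 1 of 2 NK and cytotoxic calls stayed.

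Kupffer cell genes fell in 5 of 21 cases (against 0.705% of all genes) and rose in 0. The list as a whole had a median of -0.08 (-0.60 without blockade, 0.18 with it). Cd163, the scavenger receptor for haemoglobin bound to haptoglobin, lay at 20.2, 14.7 and 20.1 CPM in isotype and at 14.5, 16.2 and 14.9 CPM in antiIL1R1. It lay at 1.61, 4.35 and 1.40 CPM in agoCD40 and at 1.31, 1.161 and 1.22 CPM in Combo. Every library with agonist was below every library without it, and the log2 fold change was -3.24 ± 0.27 (edgeR adjusted p = 4.81e-05). Clec4f, a lectin of mouse Kupffer cells, fell from a median of 103 CPM (67.9 to 139) to 29.8 CPM (18.9 to 43.5). Its log2 fold change was -1.68 ± 0.23 without blockade and -1.79 ± 0.23 with it.

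Vsig4, a complement receptor of the immunoglobulin superfamily, fell from 23.9 CPM (19.7 to 39.6) to 11 CPM (7.47 to 16.4), a log2 fold change of -1.17 ± 0.20. Folr2, folate receptor β, had 9.01 to 21.0 CPM without agonist and 5.18 to 9.14 CPM with it, a log2 fold change of -1.004 ± 0.16 with a slight overlap of the arms. Timd4, a receptor for dying cells, fell by 1.64 ± 0.31 on the log2 scale. Other macrophage genes were not called, with log2 fold changes of -0.08 for Cd5l, 0.41 for Marco and -0.02 for Adgre1, the F4/80 antigen. For Adgre1 the sign turned between the states, -1.12 without blockade and 1.09 with it, and these 3 genes were chosen after their values were seen. All 5 calls were kept whenever single libraries were left out, and 4 were kept without the 2 libraries of high mitochondrial share.

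Genes of monocytes and recruited macrophages went in both directions. Of 20 tested, 2 rose (against 1.25% of all genes) and 1 fell (against 0.705%). The median was 0.09 (-0.09 without blockade, 0.53 with it). The risen genes, Gpnmb and Chil3, passed the count filter mainly through the libraries with agonist. Their signs, and the count of risen genes, are therefore a description. Gpnmb, a glycoprotein of lysosome-rich macrophages, lay at 0, 0.101 and 0.408 CPM in isotype and at 0.0455, 0 and 0.238 CPM in antiIL1R1. It lay at 0.764, 3.02 and 3.42 CPM in agoCD40 and at 12.3, 6.01 and 3.67 CPM in Combo. The arms did not overlap, and the log2 fold change was 4.87 ± 0.75. Chil3, a chitinase-like protein, rose from a median of 0.149 CPM to 1.90 CPM, and Ccl2, the monocyte chemokine, fell by 1.75 ± 0.41 on the log2 scale. Of the 3 calls 2 stayed without the 2 libraries of high mitochondrial share. The Chil3 call was kept in 3 of 12 and the Ccl2 call in 1 of 12 fits that left out a library.

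Cxcl13, the chemokine that draws B cells into follicles, fell while B cell genes rose. It lay at 1.63, 2.35 and 3.00 CPM without agonist and at 0.0842, 0.442 and 0.548 CPM with it. The arms did not overlap, and the log2 fold change was -2.56 ± 0.38 (edgeR adjusted p = 0.00428), with -2.68 and -2.45 in the separate states. Pla2g2d, a secreted phospholipase of lymphoid dendritic cells and macrophages, had 2 counts without agonist and 366 with it, a ratio of 167 (95% counting interval 45.9 to 1380). Il9r, the IL-9 receptor, had 0 to 0.137 CPM without agonist and 0.848 to 3.06 CPM with it. All 3 genes were named by a rule that asks for no overlap of the arms, so their separation is not a finding. Pla2g2d and Il9r passed the count filter mainly through the libraries with agonist, so their signs are a description.

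Matrix genes rose in 4 of 22 cases (against 1.25% of all genes) and fell in 0, with a median of 0.46 (0.11 without blockade, 0.95 with it). The risen genes were the fibrillar collagens Col1a1, Col1a2 and Col3a1 and Loxl1, which crosslinks elastin. Col1a1 lay at 2.41, 6.43 and 13.6 CPM in isotype and at 3.00, 11.1 and 6.15 CPM in antiIL1R1. It lay at 29.5, 27.6 and 28.3 CPM in agoCD40 and at 124, 37.1 and 25.1 CPM in Combo. The arms did not overlap, Combo 1 was the highest, and the log2 fold change was 2.56 ± 0.49 (edgeR adjusted p = 0.0188). Cpxm1, a secreted protein that binds collagen, rose from 1.27 CPM (0.697 to 1.67) to 7.57 CPM (5.01 to 14.0), a log2 fold change of 2.75 ± 0.26. Stellate cell genes of the same list had values near 0, with -0.06 for Lrat (adjusted p = 0.916) and 0.12 for Des (adjusted p = 0.885), both chosen after their values were seen. Of the 4 matrix calls 1 stayed without the 2 libraries of high mitochondrial share, and 2 stayed without antiIL1R1 3.

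H19, an imprinted fetal transcript, went from 0.17 CPM (0 to 0.63) to 3.63 CPM (0.7 to 32.2), a log2 fold change of 5.01 ± 0.93, with Combo 1 the highest. Its call was lost without agoCD40 3. Armcx4 fell from a median of 5.005 CPM to 1.10 CPM, a log2 fold change of -2.15 ± 0.33. Its arms did not overlap, which the rule that named it requires. Obp2a, an odorant-binding lipocalin, fell by 2.41 ± 0.51 on the log2 scale, and its call was kept in 4 of 12 fits that left out a library.

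Immediate early genes, which are transcribed soon after a stimulus and encode subunits of AP-1 and related factors, fell in 6 of 28 cases and rose in 0. Among all genes tested 0.705% fell. The median of the list was -0.90, with -1.56 without blockade and -0.15 with it. For the difference between states 15 of the 28 had an unadjusted p under 0.05, against 7.51% of all genes. Their summed level ran from 1392 to 2685 CPM without agonist and from 524 to 1298 CPM with it, without overlap. Fos, an AP-1 subunit, lay at 129, 31.8 and 28.6 CPM in isotype and at 185, 47.6 and 155 CPM in antiIL1R1. It lay at 7.72, 3.61 and 10.5 CPM in agoCD40 and at 2.19, 16.6 and 19.4 CPM in Combo. Every library with agonist was lower than every library without it, and the log2 fold change was -3.23 ± 0.55 (edgeR adjusted p = 0.0114), with -3.11 and -3.34 in the separate states.

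Egr1, a zinc finger factor, fell from a median of 296 CPM (147 to 485) to 44.4 CPM (21.3 to 141), a log2 fold change of -2.33 ± 0.41. Atf3, an AP-1 related stress factor, fell by 2.75 ± 0.44 on the log2 scale. For Atf3 the value was -3.93 ± 0.45 without blockade and -1.69 ± 0.40 with it, a difference of 2.24 ± 0.57 that did not pass the test over all genes (edgeR adjusted p = 0.372). Gadd45b, Ier2 and Ier3 fell as well, while the value for Jun, -1.68, missed the threshold (adjusted p = 0.0706). All 6 calls were kept whenever single libraries were left out, and 3 were kept without the 2 libraries of high mitochondrial share.

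**Figure D3:**
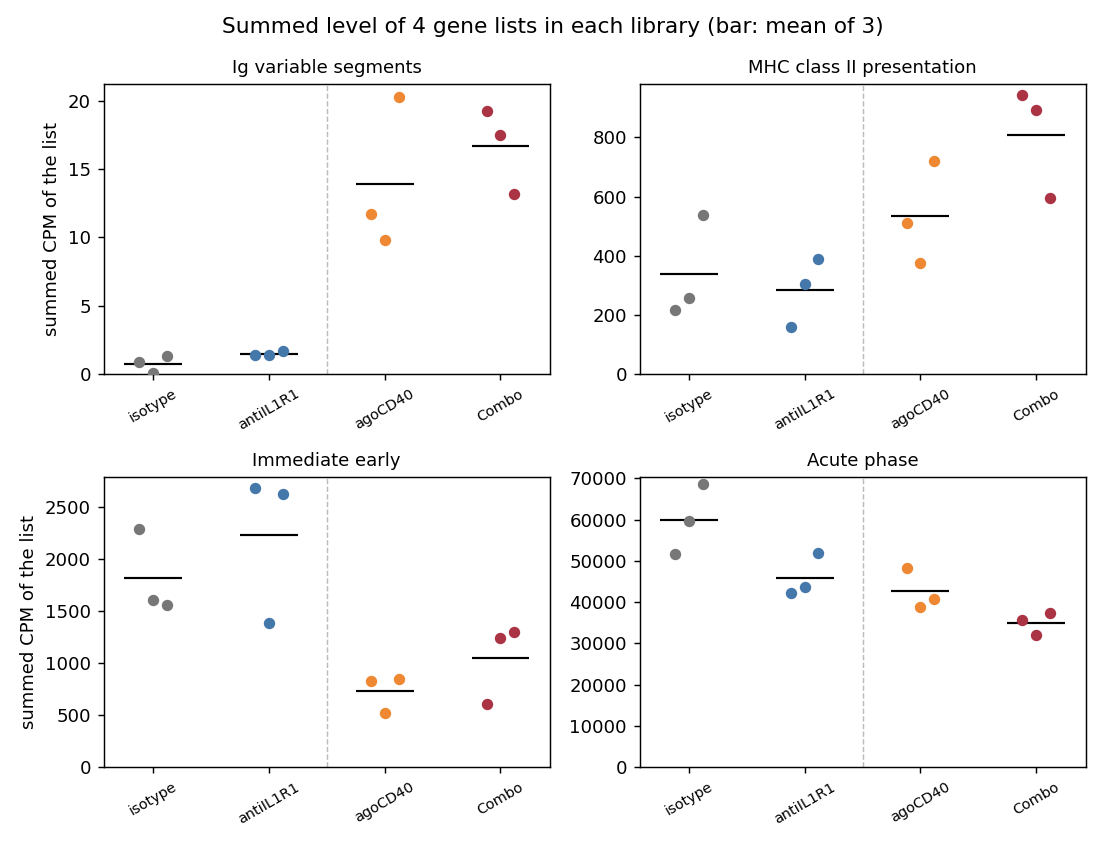
Summed TMM-scaled CPM of the tested genes of 4 lists in each library, with the mean of 3 as a bar. Libraries with agonist lie above all others for the Ig variable segments and below all others for the immediate early list, while the arms overlap for MHC class II and acute phase genes.

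Since AP-1 subunits were among the genes that fell, promoters were searched for the AP-1 letters TGANTCA, along with 5 other motifs, on both strands of windows from 250 bases before to 50 after each RefSeq start. TGANTCA reads the same on both strands. It was found for 8 of 79 genes called lower with a promoter in the table (10.1%), for 14 of 129 called higher (10.9%), for 6.69% of 10993 tested genes and in 7.81% of 32851 promoters. TGACGTCA, the cAMP response element, was found for 1.27% of lower and 4.65% of higher genes, against 3.26% of tested genes. CACGTG (E-box) had 7.59% and 6.2% against 11.4%, and ATGCAAAT (octamer) had 2.53% and 2.33% against 1.67%. The NF-kB motif had 0% and 0.775% against 0.237%. The serum response element was found for 0 called genes in either direction, against 0.0273% of tested genes, a share at which 0 says little. Of the 6 called immediate early genes 4 had a promoter in the table, and Egr1 and Ier2 were not searched. A match describes letters and not binding, and no match says only that these letters are not in the window. Genes named by the rule given below were searched for a display of the letters in place. Cp, an acute phase gene outside that rule, also holds the AP-1 letters in its window and is not shown. The 3 called genes of the rule whose 250 bases before the start hold the letters are shown (RefSeq, GRCm38.p6, whereas the submitters' notes name GRCm39). They are written 5′ to 3′ towards the start, with the match in capitals.
Fgb, chr3:83049864-83050113, minus strand: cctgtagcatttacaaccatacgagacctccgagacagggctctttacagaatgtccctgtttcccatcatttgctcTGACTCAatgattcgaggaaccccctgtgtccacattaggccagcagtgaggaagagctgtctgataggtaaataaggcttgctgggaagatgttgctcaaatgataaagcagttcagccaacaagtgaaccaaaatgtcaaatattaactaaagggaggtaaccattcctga
Folr2, chr7:101845332-101845581, minus strand: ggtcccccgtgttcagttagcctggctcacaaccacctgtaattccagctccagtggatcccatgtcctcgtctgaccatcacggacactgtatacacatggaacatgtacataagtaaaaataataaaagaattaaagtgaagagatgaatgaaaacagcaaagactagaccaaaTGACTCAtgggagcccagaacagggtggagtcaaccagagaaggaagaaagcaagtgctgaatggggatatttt
Ugt2b38, chr5:87424204-87424453, minus strand: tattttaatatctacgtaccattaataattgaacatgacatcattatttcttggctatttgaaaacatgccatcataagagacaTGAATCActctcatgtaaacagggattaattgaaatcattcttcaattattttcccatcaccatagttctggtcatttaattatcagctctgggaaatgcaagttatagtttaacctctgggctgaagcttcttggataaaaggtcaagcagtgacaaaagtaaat
The match ends 166 bases before the start of Fgb, 67 bases before the second of the listed starts of Folr2 and 159 bases before the start of Ugt2b38. Fgb and Folr2 fell with agonist, whereas Ugt2b38, a glucuronosyltransferase, rose from a median of 10.2 CPM to 25.1 CPM. The Ugt2b38 log2 fold change was 2.49 ± 0.32 without blockade and 0.68 ± 0.30 with it. That difference did not pass the test over all genes (edgeR adjusted p = 0.3085). Its highest library was agoCD40 1 (77.5 CPM), and the call was kept in 9 of 12 fits that left out a library.

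Acute phase genes, which the liver makes in response to IL-6 and IL-1, fell in 7 of 34 cases and rose in 0. Among all genes tested 0.705% fell. The median of the list was -0.47 (-0.70 without blockade, -0.35 with it), and 31 of 34 values were negative, against 7754 of 15465 over all genes. Fgb, the fibrinogen β chain, averaged 5396 ± 802 CPM in isotype and 3319 ± 399.9 CPM in agoCD40 (SD, n = 3). It averaged 3814 ± 350.3 CPM in antiIL1R1 and 2606 ± 60.1 CPM in Combo (SD, n = 3). The mean was lower with agonist in both states, the 2 arms of 6 overlapped, and the log2 fold change was -0.63 ± 0.11 (edgeR adjusted p = 0.0144).

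Apcs, serum amyloid P, fell from a median of 158 CPM (87.8 to 223) to 59.5 CPM (55.4 to 106), and Itih4, an inhibitor heavy chain, fell by 0.85 ± 0.16 on the log2 scale without overlap of the arms. Fgg, Hp, Itih3 and Cp fell by 0.58 ± 0.12, 0.89 ± 0.20, 0.95 ± 0.22 and 0.48 ± 0.11 on the log2 scale. Under total-count scaling 2 of the 7 calls stayed, and 5 stayed without the 2 libraries of high mitochondrial share. Leaving out agoCD40 2, agoCD40 3, antiIL1R1 3 or Combo 2 kept 3.

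The receptor targeted by the agonist was low and was not called. Cd40 lay at 0 to 0.853 CPM without agonist and at 0.48 to 1.66 CPM with it, a log2 fold change of 1.47 ± 0.63 (edgeR adjusted p = 0.287). In the IL-1 family 1 of 18 genes was called (against 1.96% of all genes), Il1r1 itself. It had 38.6 to 81.6 CPM without agonist and 29.4 to 44.9 CPM with it. Its log2 fold change was -0.58 ± 0.14 (edgeR adjusted p = 0.0494), the arms overlapped, and the call was kept in 1 of 12 fits that left out a library. For Il1a, Il1b and the antagonist Il1rn the log2 fold changes were -0.996 ± 0.31, -0.77 ± 0.48 and 0.77 ± 0.43, with adjusted p of 0.127, 0.483 and 0.428. The Il1r1 call was also lost without the 2 libraries of high mitochondrial share.

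Target genes of CD40 and NF-kB signalling held 0 higher and 1 lower call among 20, where 1.25% and 0.705% of all genes were called. Their median was 0.13 (-0.13 without blockade, 0.38 with it). The lower one was Cxcl1, a neutrophil chemokine, which fell from 34.6 CPM (18.6 to 54.4) to 8.58 CPM (2.86 to 14.8), a log2 fold change of -2.15 ± 0.37. The interferon lists had medians of 0.12 (interferon γ, 21 genes, with Ciita as its 1 call) and 0.02 (type I, 24 genes, with Usp18 as its 1 call, kept in 2 of 12 fits that left out a library). Both interferon list calls were lost without the 2 libraries of high mitochondrial share. Of 16 genes of dendritic cells and costimulation 0 were called, and Cd83, a maturation marker, had a log2 fold change of 1.19 ± 0.32 (edgeR adjusted p = 0.0802).

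**Figure D4:**
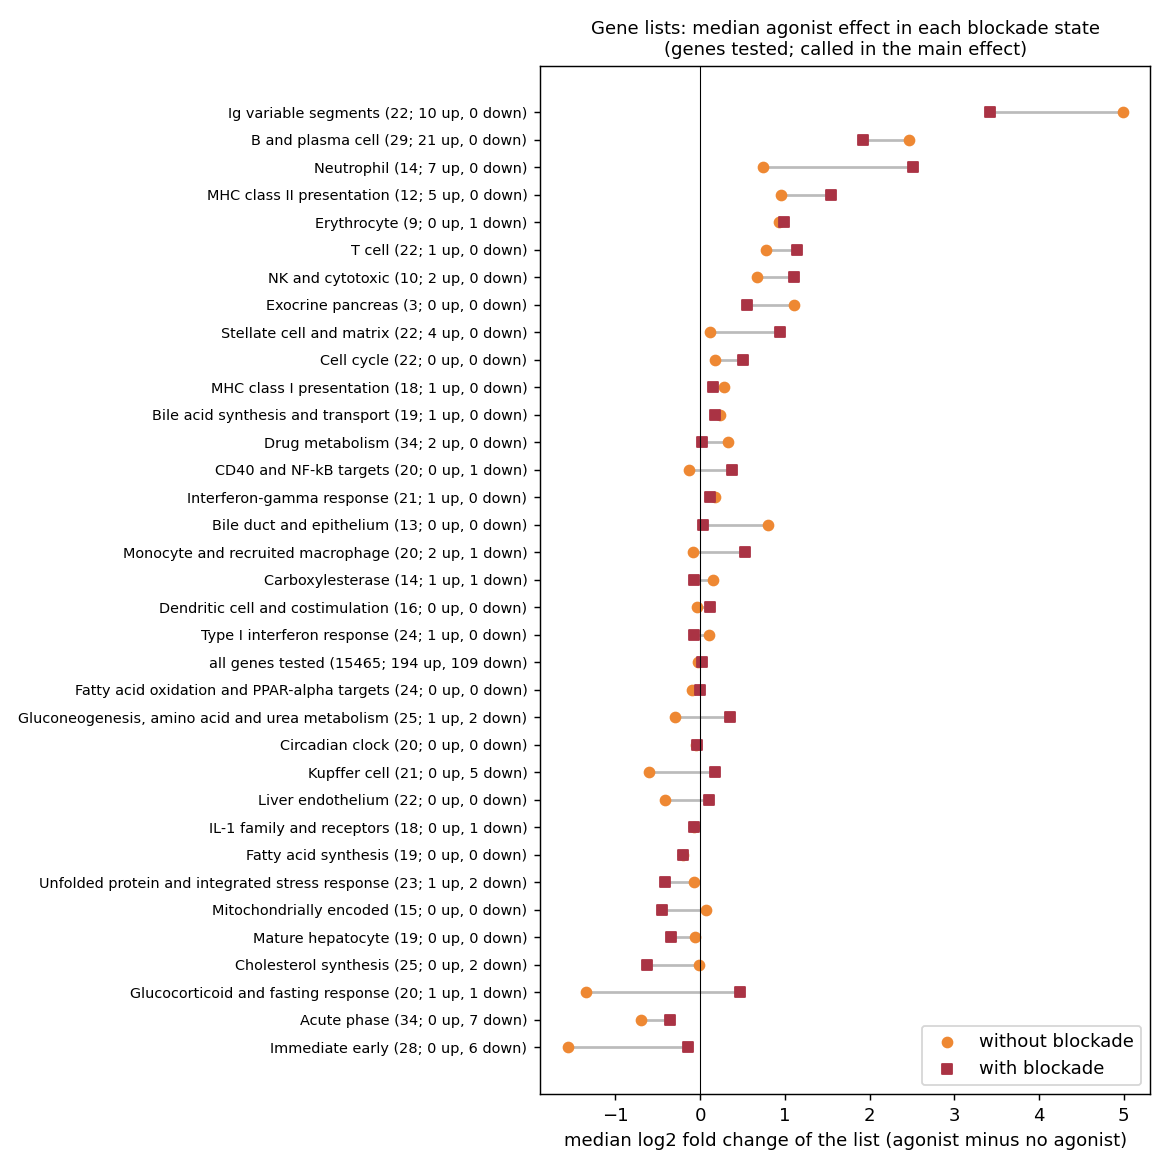
Median log2 fold change of each gene list for the agonist without and with blockade, with the number of genes tested and called beside its name. The Ig variable segments shown passed the count filter mainly through the libraries with agonist, as did several neutrophil and B and plasma cell genes. So did some called genes of the MHC class II, T cell, NK and cytotoxic, and monocyte lists. The place of these lists is therefore a description. The glucocorticoid and fasting list has medians of opposite sign, -1.34 without blockade and 0.47 with it. Other lists do too, such as the Kupffer cell list (-0.60 and 0.18).

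Of the metabolic lists tested, each had 0 to 3 called genes, where 1.96% of all genes were called. Cyp2c70, which makes muricholic acids in the mouse, rose from 248 CPM (193 to 319) to 494 CPM (403 to 524), a log2 fold change of 0.94 ± 0.13 (edgeR adjusted p = 0.0023) whose call was kept in 12 of 12 fits that left out a library. It was the call among 19 bile acid genes, whose median was 0.21. Cyp2c40 rose by 2.04 ± 0.41 (log2) and the carboxylesterase Ces2b rose from a median of 0.127 CPM to 2.67 CPM, while Ces1b fell by 0.79 ± 0.15 on the log2 scale. Arg1, the arginase of the urea cycle, fell from 1526 CPM (1146 to 1646) to 858 CPM (812 to 1011) without overlap. Glud1, glutamate dehydrogenase, fell by 0.50 ± 0.10 on the log2 scale, and its call was kept in 7 of 12 fits. Of 25 genes in that list 1 rose and 2 fell.

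Cholesterol synthesis genes had a median of -0.34 (-0.02 without blockade, -0.62 with it). Of 25 tested 0 rose (against 1.25% of all genes) and 2 fell (against 0.705%). Both calls were lost in at least 1 of the fits that left out a library. Of 23 genes of the unfolded protein and integrated stress response 1 rose and 2 fell. Their median was -0.20, with 19 negative values (7754 of 15465 over all genes). Chac1, a glutathione-degrading enzyme, fell (-1.71 ± 0.28), as did Atf3, and Trib3, a pseudokinase, rose (0.93 ± 0.22, kept in 2 of 12 fits). With edgeR 0 genes were called among 19 fatty acid synthesis, 24 fatty acid oxidation, 20 circadian clock, 22 cell cycle, 22 liver endothelium, 13 bile duct, 15 mitochondrially encoded and 19 mature hepatocyte genes. The hepatocyte list had a median of -0.21. Without the 2 libraries of high mitochondrial share 1 of 3 amino acid and urea, 1 of 2 cholesterol, 1 of 2 carboxylesterase and 2 of 3 stress response calls stayed. Of 20 exocrine pancreas genes, a check for carried-over pancreas, 3 were tested and 0 called.

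The glucocorticoid and fasting list had medians of opposite sign in the blockade states, -1.34 without blockade and 0.47 with it. This was not particular to it. Such medians were also seen for Kupffer cell (-0.60 and 0.18), liver endothelium (-0.41 and 0.10), and amino acid and urea genes (-0.30 and 0.35), among others. Ddit4 was the gene whose difference between states passed the test. Of 20 glucocorticoid and fasting genes 1 rose (against 1.25% of all genes) and 1 fell (against 0.705%) in the main effect. For the difference between states 14 of these 20 had an unadjusted p under 0.05, against 7.51% of all genes. The fallen gene was Fkbp5, a cochaperone of the glucocorticoid receptor, which went from 50.9 CPM (36.0 to 63.5) to 19.8 CPM (17.0 to 30.9), and the risen one was Angptl4 (0.73 ± 0.17, kept in 2 of 12 fits that left out a library), an inhibitor of lipoprotein lipase. Ddit4, an inhibitor of mTORC1, lay at 20.9, 20.8 and 41.1 CPM in isotype and at 3.90, 5.38 and 6.44 CPM in agoCD40. It lay at 7.10, 5.51 and 9.29 CPM in antiIL1R1 and at 22.2, 36.3 and 14.3 CPM in Combo. The agonist effect was thus -2.39 ± 0.37 without blockade and 1.73 ± 0.36 with it, and the difference was 4.13 ± 0.52 (edgeR adjusted p = 0.0422).

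Of the 2 main effect calls of the list 1 stayed without the 2 libraries of high mitochondrial share. The main effect of Ddit4 was -0.32 ± 0.72 (edgeR adjusted p = 0.882). The call of the difference was lost when any of agoCD40 1 to 3, antiIL1R1 1 to 3, Combo 2 or isotype 3 was left out, while the value stayed between 3.71 and 4.40 over all 12 such fits. Gadd45g, Per1, Tnfrsf1b and Tsc22d3 had the next smallest p for the difference among genes of at least 1 CPM, each with an adjusted p of 0.104. Per1, a clock gene that glucocorticoids induce, had -1.69 ± 0.23 without blockade and 0.32 ± 0.23 with it. Gadd45g had -2.95 ± 0.43 and 0.70 ± 0.40, Tnfrsf1b (TNF receptor 2) had -1.28 ± 0.26 and 1.08 ± 0.26, and Tsc22d3, which encodes GILZ, had -0.79 ± 0.21 and 1.04 ± 0.21. These 4 differences did not pass the test over all genes, and for Per1 and Gadd45g the effect with blockade had an unadjusted p of 0.179 and 0.106 (edgeR).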

How the data were processed

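Liver RNA was extracted, poly(A)-enriched and sequenced in 12 libraries, per the labels' protocols. The authors deposited expected counts (estimated per gene, not scaled between libraries) and TPM. In the submitters' processing notes STAR, RSEM 1.3.1, DESeq2 1.28.0 and GRCm39 are named with no roles. The deposited counts and TPM carry the name of Salmon in their titles, and which tool made them is not stated.

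Counts were rounded and analysed in R 4.3.3 with edgeR 4.0.16: filterByExpr (minimum count 10) kept 15465 of 56748 genes, followed by TMM scaling, the quasi-likelihood test and Benjamini-Hochberg adjustment over all genes (threshold 0.05). The main effect came from a model of blockade plus agonist, the effects in each state and their difference from a mean per group, and the agreement from separate fits of 6 libraries. The count filter can admit a gene through 1 group alone. The signs of genes near 0 CPM without agonist, such as Ces2b and H19, are therefore a description. The biological coefficient of variation was 0.301. SE were derived from the test statistic. For 1 to 3 counts in an arm a ratio with a 95% counting interval is given, which covers counting error only. CPM are TMM-scaled.

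The comparison and the gene lists were chosen with earlier results of these data known. Named genes were the 8 highest and 8 lowest called genes of at least 1 CPM without overlap of the arms, up to 4 genes of each list, Cd40 and IL-1 genes, and the smallest p of the main effect and of the difference. Further called members of a list, and the uncalled members Xbp1, Csf3r, Cxcr2, Retnlg, Prtn3, Lcn2, Mmp8, Mmp9, Cd74, H2-Ab1, Cd5l, Marco, Adgre1, Lrat, Des and Jun, lie outside this rule and were named after their values were seen. Some genes that the rule names are not reported here. On counts simulated for 15465 genes the main effect recovered 67 of 100 genes altered 2-fold and 94 of 100 altered 4-fold, with 8 false calls. The difference between states recovered 9 of 100 and 53 of 100, with 4 false calls.

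Alternatives were RLE and total-count scaling, no filter, DESeq2 1.42.0, limma 3.58.1 on log2(TPM + 1) and log2(TPM + 0.1), the replicate number as a block, the mitochondrial percent as a covariate, a mean per group, agonist as the only factor, and leaving out libraries.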

Additional observations from a re-analysis of the deposited data

Results flagged for a closer look

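Of 176 sets of 6 libraries examined, most of them the log2 of CPM + 1 of a named gene in one arm, 13 had 1 library far from the other 5, which is 7.39%, where chance gives about 1 in 20. In the arm with agonist, Cd163 was highest in agoCD40 2 (4.35 CPM), Armcx4 was lowest in agoCD40 3 (0.442 CPM), Col1a1 was highest in Combo 1 (124 CPM), Ces1b was lowest in Combo 2 (26.9 CPM) and Obp2a was at 0 CPM in Combo 1.

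In the arm without agonist, isotype 3 stood above the others for Ngp (1.00 CPM), Mpo (0.26 CPM), Chil3 (1.08 CPM) and Ccl2 (4.79 CPM). Ighg2c was highest in isotype 2 (0.402 CPM) and Trib3 was lowest in antiIL1R1 3 (5.52 CPM). Camp in antiIL1R1 3 (0.0397 CPM) and Igkv16-104 in antiIL1R1 1 (0.0455 CPM) rest on 1 count each, where the other libraries without agonist had 0. The causes were not tested.

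Ddit4 differed between the blockade states by a test of the difference itself, by 4.13 (log2) with minus without blockade (edgeR adjusted p = 0.0422).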

How the results depend on the processing

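The agonist main effect called 303 genes (194 higher, 109 lower). The count was 631 (364 and 267) with no filter, 815 (457 and 358) with DESeq2, 178 (121 and 57) with the replicate block, 152 (93 and 59) without both libraries of high mitochondrial share and 1012 (559 and 453) with the mitochondrial percent as a covariate, and all 303 were among the calls of DESeq2 and of the covariate fit. Total-count scaling gave 305 higher and 61 lower. Limma on log2(TPM + 1) gave 201 with 34 lower, and on log2(TPM + 0.1) 32 lower, with 83.1% and 84.5% of calls higher. Leaving out 1 library gave 134 to 442 calls (88 to 300 higher, 46 to 142 lower).

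For the agonist effect without blockade the count of 111 became 466 (no filter), 399 (DESeq2), 59 and 67 (limma), 72 (replicate block), 256 (covariate) and 28 (only the groups compared), and 28 to 108 when single libraries were left out. For the agonist effect with blockade the count of 27 became 742, 486, 46 and 44 in the first 4 of these, 9 (replicate block), 10 (without both libraries), 65 (only the groups compared) and 4 to 71. For the difference the 1 call became 0 (total-count scaling, both limma fits, replicate block, without both libraries), 232 (no filter), 87 (DESeq2), 3 (covariate) and 0 to 13.

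The share of the same sign ran from 64.3% to 100% for genes called without blockade, with no value without agoCD40 1, and from 68.4% to 100% for genes called with blockade, with 96.3% in the fit of 12 libraries. The main effect turned direction in 3 uncalled genes when single libraries were left out: Ddit4 (-0.825 to 0.185), Tsc22d3 (-0.0802 to 0.28) and Tnfrsf1b (-0.341 to 0.152). Tnfrsf1b was also positive with total-count scaling (0.016), limma (0.0637 and 0.0603) and agonist alone (0.00932). The cause was not tested. Of 99 named or listed calls 38 were kept in every setting and 56 in every fit that left out a library. Most same-numbered libraries did not deviate together (median correlation -0.0262 over 18 pairs, -0.395 to 0.406, 2 above 0.1), so the numbers are not taken as pairs. However, isotype 2 and antiIL1R1 2 shared the highest mitochondrial shares (14.1% and 14.8%) and the lowest TMM factors (0.898 and 0.917). Whether libraries of the same number were handled together is not given and was not tested.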
